A study of Mus musculus with 4 samples.

Results

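Sterols and fatty acids are both built from cytosolic acetyl-CoA. The enzymes that build them are transcribed under the sterol regulatory element-binding proteins (SREBPs), which are held in the endoplasmic reticulum by INSIG proteins, escorted to the Golgi by SCAP when sterol is scarce, and cut there to release a transcription factor. SREBP-2 is best known for the cholesterol pathway and SREBP-1 for fatty acid synthesis, and in myeloid cells fatty acid synthesis supplies membranes and lipid mediators.

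The sterol and fatty acid synthesis genes described here are 35 genes of the SREBP pathway out of 53465 genes listed, taken by symbol from a fixed list, and every one of them was found. They comprise 4 regulators, 7 genes of the mevalonate steps, 11 of the sterol branch, 2 of sterol transport, 4 of acetyl-CoA supply and fatty acid synthesis, and 7 of elongation and desaturation. The family was selected on the measured counts of Fasn, which were lower with EGCG in these libraries, so the fold change of Fasn is given as a description with no test. Myeloid-derived suppressor cells (MDSCs), a mixed population of immature myeloid cells that expands in cancer, were taken with beads against Gr-1 from the spleens of BALB/c mice carrying 4T1, a transplantable mammary carcinoma. The mice were males of 6 weeks when injected, and the labels give day 21 for the harvest, whereas the study's methods give an earlier day. All cells came from tumor-bearing mice. EGCG, a green tea polyphenol, was added in vitro at 5 μg/mL for 6 h in 2 libraries, and the other 2 libraries had control medium alone. The sources do not say whether separate mice gave the libraries of each group, so p values may measure technical spread only, and fewer cells of a type cannot be told apart from less RNA per cell.

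Between 17767318 and 18390385 counts fell on genes in each library, and the 35 genes took 0.195% and 0.185% of them in the control libraries against 0.177% and 0.184% in the EGCG libraries. Defining markers of the sorted cells were abundant: Itgam, the integrin chain CD11b, had 11802 to 13742 counts, and the summed level of the 9 neutrophil and MDSC markers was 51344 and 62286 CPM in control against 70540 and 62680 CPM with EGCG. CPM here are TMM-scaled, so that library sizes are corrected for composition. Control replicate 1 stood apart in the 35 genes. Its levels of them differed from those of the other 3 libraries by a median absolute log2 difference of 0.11 to 0.13, while the other 3 libraries differed among themselves by 0.07 to 0.08. Over all tested genes, the distances from control replicate 1 to the EGCG libraries (0.1639 and 0.1692) were the largest of the 6, while its distance to control replicate 2 (0.1336) was like those from control replicate 2 to the EGCG libraries (0.1336 and 0.1362).

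Promoter sequences of Fasn, Acly and Hmgcs1 are shown, because Fasn had the lowest fold change in the family while Acly and Hmgcs1, which lead into the fatty acid and sterol arms, lay close to control. Each is the 200 bases before the start of the gene in RefSeq (GRCm38.p6), read 5′ to 3′ on the gene's strand. Capitals mark CCAAT (the NF-Y site), GGGCGG (the Sp1 site), CACGTG (an E-box) and CACNCCAC (a core of the sterol regulatory element), searched on both strands.
Fasn, chr11:120824548-120824747, minus strand: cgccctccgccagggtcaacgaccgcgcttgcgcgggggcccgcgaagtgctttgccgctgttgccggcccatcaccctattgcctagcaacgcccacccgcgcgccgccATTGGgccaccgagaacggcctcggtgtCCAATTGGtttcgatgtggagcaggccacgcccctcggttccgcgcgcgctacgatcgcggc
Acly, chr11:100528001-100528200, minus strand: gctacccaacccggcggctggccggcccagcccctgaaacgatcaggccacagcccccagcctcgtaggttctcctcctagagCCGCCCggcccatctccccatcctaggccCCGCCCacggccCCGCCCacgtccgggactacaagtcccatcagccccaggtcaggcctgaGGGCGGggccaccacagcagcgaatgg
Hmgcs1, chr13:119690151-119690350, plus strand: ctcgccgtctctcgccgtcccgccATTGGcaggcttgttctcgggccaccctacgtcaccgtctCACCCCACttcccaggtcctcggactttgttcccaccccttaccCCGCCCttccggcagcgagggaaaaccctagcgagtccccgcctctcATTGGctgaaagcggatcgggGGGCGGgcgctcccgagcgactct

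In the Fasn stretch, CCAAT occurs 3 times, beginning 90, 62 and 59 bases before the start, the last 2 overlapping on opposite strands. Hmgcs1 carries both CCAAT and GGGCGG there, and Acly 4 copies of GGGCGG. The promoter table matched 28 of the 35 genes, with a window from 250 bases before to 50 after each start. CCAAT lay in a window of 23 of the 28 genes (82.1%), against 41.1% of the 27025 genes in the table. The counts for GGGCGG were the same, 23 of 28, against 38.2% of all genes. For CACGTG they were 6 of 28 (21.4%) against 8.09%. The longer sterol element, that core preceded by AT, was in 0 of the 28 genes and in 0.270% of all genes. The form ATCACGTGA, which contains the palindrome CACGTG, was in 0 of 28 and 0.374%. The shorter core CACNCCAC, searched only after the longer form gave no match, was in 3 of 28 genes (Acat2, Hmgcs1 and Insig1) and in 7.12% of all genes. All genes here are the 27025 with a promoter window, whether or not they were expressed in these cells, and a comparison with the tested genes alone was not made. A match of letters is a description and not a binding site.

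Per length, the family spanned a 71.1-fold range in the control libraries, from Elovl1 (an elongase of saturated and monounsaturated very long chains) at 58.2 ± 0.602 CPM per kilobase of exon (SD, n = 2) to Elovl6 at 0.819 ± 0.122 (SD, n = 2). Mvd and Acly followed Elovl1 at 53.9 and 53.7 CPM per kilobase, and these 2 overlapped between libraries. Of the transcription factor genes, Srebf2 at 38.5 CPM per kilobase stood 3.02-fold above Srebf1 at 12.7. Fasn held a middle place at 6.34 ± 0.611 CPM per kilobase (SD, n = 2), 5.16-fold above Acaca at 1.23 ± 0.0317 (SD, n = 2), and its libraries overlapped those of its neighbors Mvk (6.47) and Scap (6.25). The median over all tested genes was 4.06 CPM per kilobase, and 27 of the 35 genes lay above it. Exonic length joins all annotated transcripts of a gene, so that genes with long alternative exons read low on this scale.

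**Figure D1:**
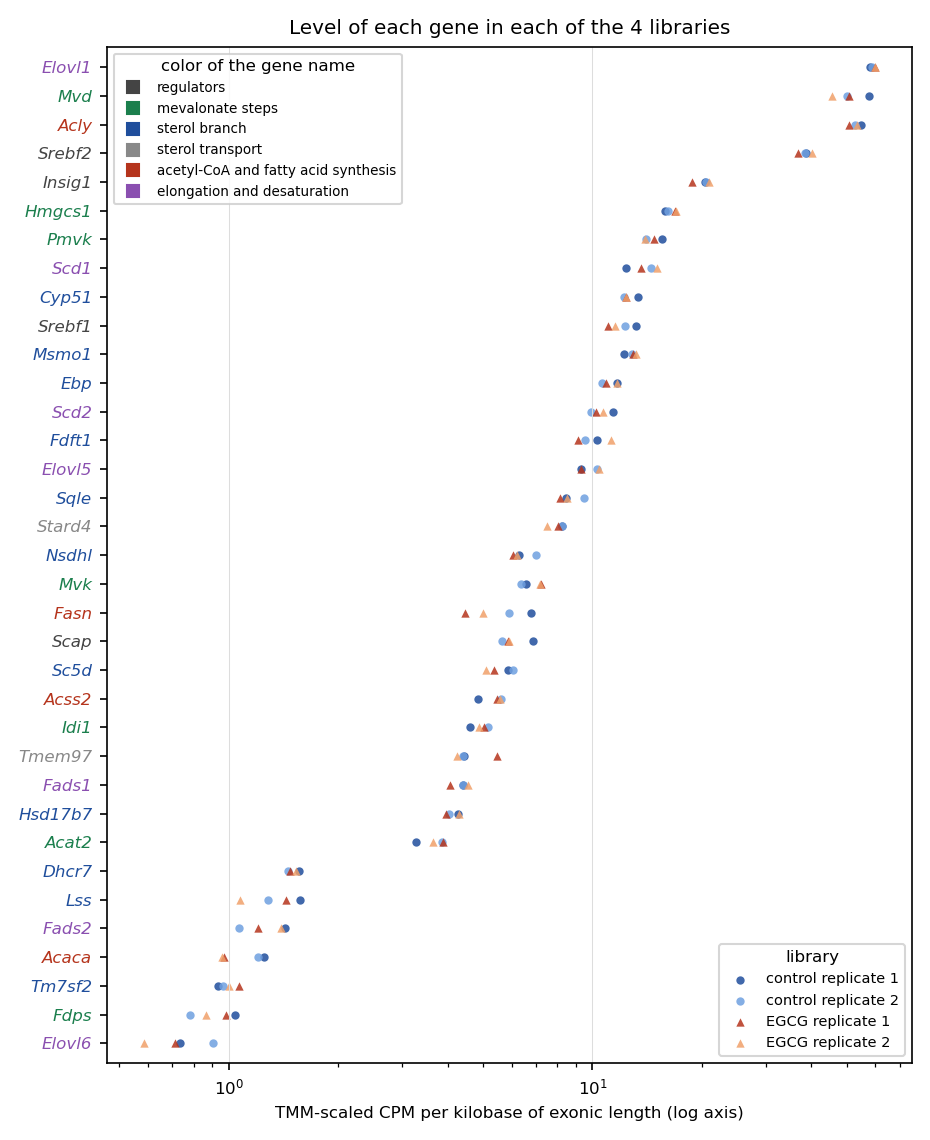
Level of each of the 35 genes in each of the 4 libraries, as TMM-scaled CPM per kilobase of exonic length on a log axis, ordered by the control mean, with gene names colored by role. Elovl1, Mvd and Acly stand at the top above 40 CPM per kilobase, Elovl6 is the lowest, and for most genes the control points (circles) and the EGCG points (triangles) lie together.

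The question whether EGCG altered the family was put to edgeR's quasi-likelihood test across 14682 genes, and all 35 members had enough counts to be tested (59 to 5272 per library). Leaving Fasn aside, 0 of the other 34 genes had a Benjamini-Hochberg adjusted p under 0.05 in either direction, with adjusted p values from 0.228 to 0.997 in edgeR. Of all tested genes, edgeR called 0.136% lower and 0.0136% higher. Before adjustment, at a p under 0.05, edgeR's test held for 2 of the 34, Acaca and Srebf1, both lower in the EGCG treatment group, against 12.2% of all tested genes (7.02% lower and 5.22% higher). DESeq2 gave 0 of the 34 at an adjusted and 1 at an unadjusted p under 0.05. It returned no adjusted p for Acat2, Fdps, Tm7sf2, Dhcr7, Tmem97, Elovl6 and Fads2, so these could not be called by it.
The members were small in their differences in both directions. Of the 34 genes, 19 were lower and 15 higher with EGCG, and over all tested genes 49.4% were lower. The median log2 fold change was -0.0091 over the 35 genes and 0.0031 over all tested genes. In size, regardless of sign, the median was 0.07 on the log2 scale for the 34 genes, 0.13 for all tested genes and 0.11 for the 9749 tested genes within the same range of mean counts. The unadjusted 95% interval of the fold change lay within 1.5-fold of no difference for 32 of the 34 genes, the exceptions being Acaca and Elovl6. Both EGCG libraries lay below both control libraries for 6 of the 34 (Srebf1, Nsdhl, Sc5d, Stard4, Acaca and Elovl6), and above them for 5 (Hmgcs1, Mvk, Tm7sf2, Msmo1 and Elovl1), against 21.2% and 21.5% of all tested genes.

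**Figure D2:**
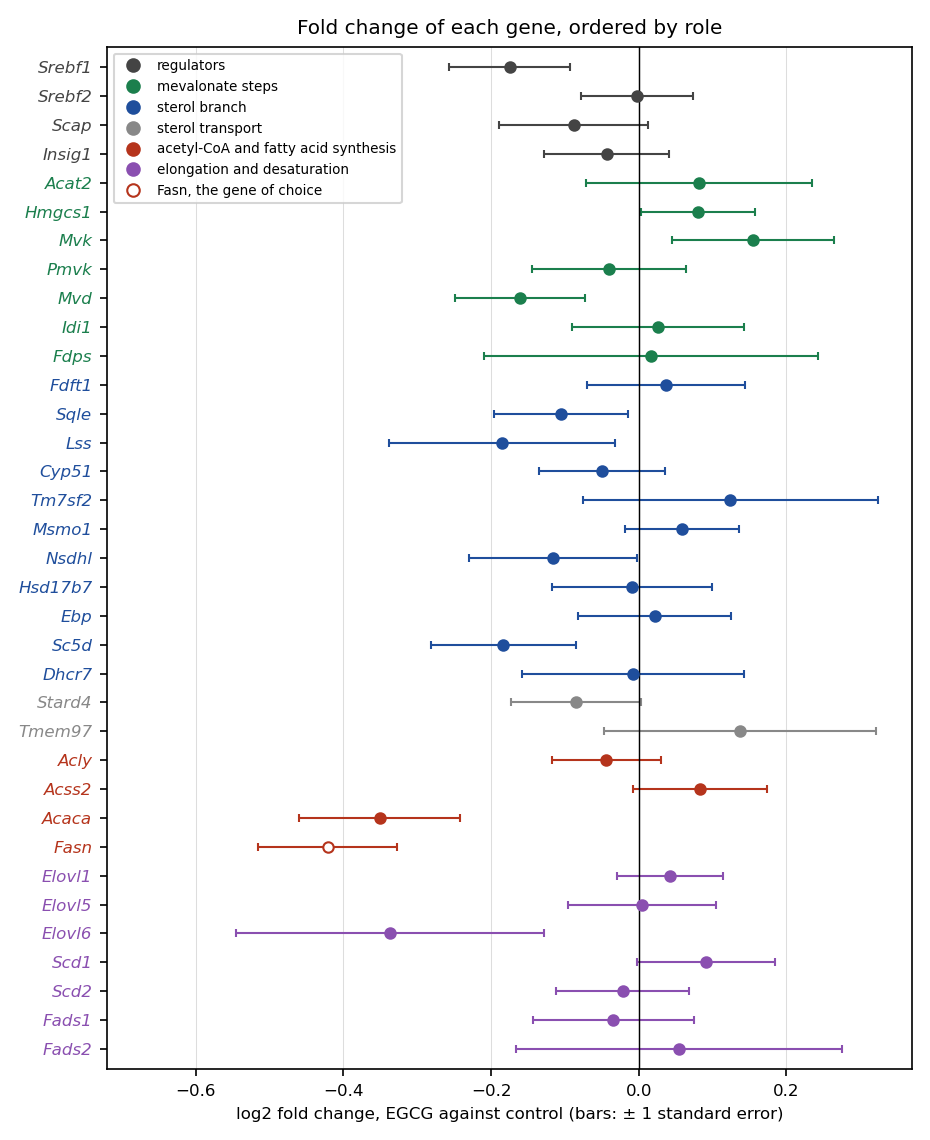
Log2 fold change of EGCG against control for the 35 genes, ordered and colored by role, with bars of ± 1 standard error from edgeR. Fasn (open circle, -0.42) and Acaca (-0.35) lie farthest to the left, and most genes lie within 0.2 of no difference.

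Fasn encodes fatty acid synthase, the enzyme that builds palmitate from acetyl-CoA and malonyl-CoA (ENSMUSG00000025153, chr11:120805846-120824547 on GRCm38, minus strand). It was at 74.1 and 64.6 CPM in the control libraries and at 48.9 and 54.7 CPM in the EGCG libraries. Both EGCG libraries lay below both control libraries, and the log2 fold change was -0.42 (standard error 0.09), or 74.7% of the control level. This describes the sequenced libraries alone, and Fasn transcripts by other assays were not analysed here. Without control replicate 1 it was -0.31 and without control replicate 2 it was -0.51. None of the 31-base words of its transcripts occur in transcripts of other genes, and no other annotated exon overlaps its own.
Acaca encodes acetyl-CoA carboxylase 1, which makes the malonyl-CoA that fatty acid synthase uses (ENSMUSG00000020532, chr11:84129672-84401651 on GRCm38, plus strand). It was at 21.4 and 20.6 CPM in control and 16.5 and 16.3 CPM with EGCG, so that the groups did not overlap and the libraries of each group lay close together. Its log2 fold change was -0.35 (standard error 0.11, unadjusted 95% interval from -0.59 to -0.12), and edgeR's test gave an adjusted p of 0.228, with a range from 0.130 to 0.678 over 9 alternatives. With a library left out it stayed between -0.37 and -0.32, and with an offset for gene length it was -0.19. Of the 31-base words in its transcripts, 33.5% recur elsewhere in the transcriptome, so its reads are partly uncertain.
The step before these is ATP citrate lyase, which cuts citrate to give cytosolic acetyl-CoA. Differences between its gene and Fasn or Acaca were not tested. Acly was at 288.7 and 277.7 CPM in control and at 267.4 and 282.1 CPM with EGCG, with overlapping groups. Its log2 fold change was -0.04 (standard error 0.07, unadjusted 95% interval from -0.20 to 0.11, edgeR adjusted p 0.865), and it was -0.0034 when EGCG replicate 1 was dropped and -0.08 when EGCG replicate 2 was. Acss2, which makes acetyl-CoA from acetate, was at 49.3 and 56.8 CPM in control and 55.7 and 56.7 CPM with EGCG, again overlapping, and the log2 fold change was 0.08 (standard error 0.09). Acss2 shares its locus with exons of Gss, Ggt7 and an antisense gene on the other strand, and reads of the opposite strands cannot be told apart in these non-stranded counts.

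**Figure D3:**
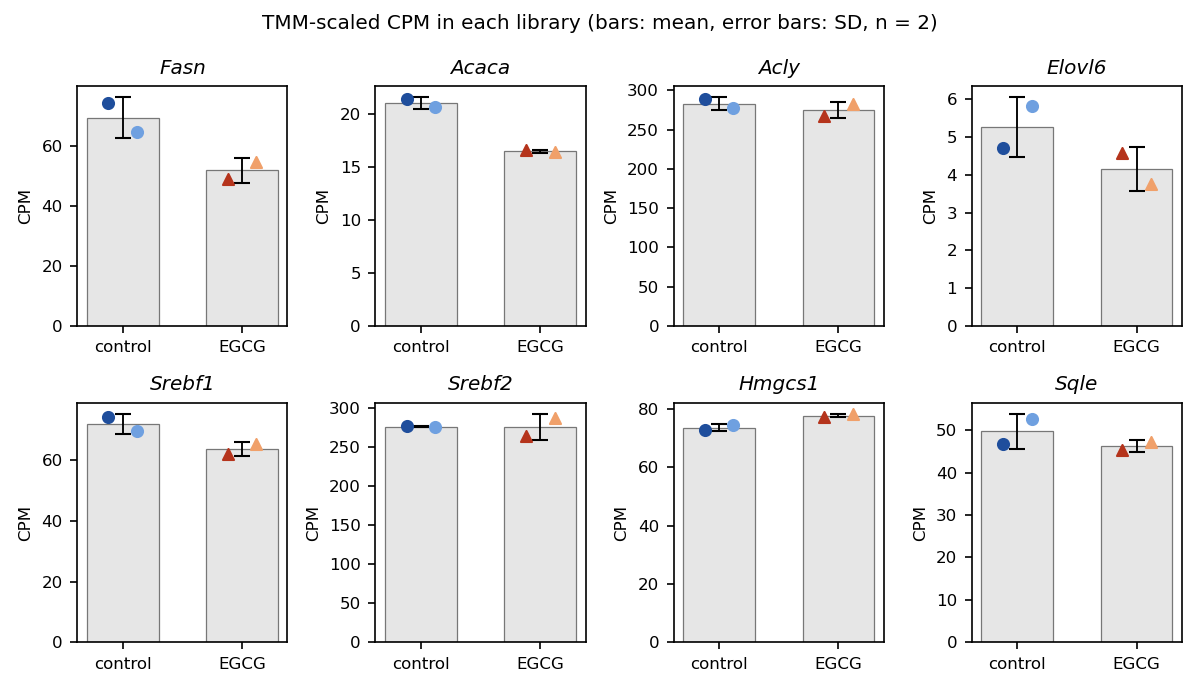
TMM-scaled CPM of 8 genes in the control libraries (circles) and the EGCG libraries (triangles), with bars for the mean and error bars for the SD (n = 2). Fasn, Acaca, Srebf1 and Elovl6 have both EGCG points below both control points, Hmgcs1 has them above, and Acly, Srebf2 and Sqle overlap.

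Elongases and desaturases act on fatty acid chains. At an adjusted or an unadjusted p under 0.05, 0 of these 7 genes passed edgeR's test (0.15% and 12.2% of all tested genes did). Their summed level was 343.8 and 351.6 CPM in control and 346.7 and 362.3 CPM with EGCG, so that the groups overlapped. Elovl6, the elongase that turns palmitate into stearate, had the lowest fold change of them. It had 4.71 and 5.82 CPM in control and 4.58 and 3.75 CPM with EGCG, a log2 fold change of -0.34 (standard error 0.21, edgeR adjusted p 0.559). Only 67 to 104 counts per library stood behind it, and its unadjusted 95% interval ran from -0.78 to 0.11. Dropping EGCG replicate 1 gave a log2 fold change of -0.49, and dropping control replicate 2 gave -0.17.
Stearoyl-CoA desaturases put the first double bond into saturated fatty acids. Scd1 was at 60.6 and 70.8 CPM in control and 66.5 and 73.5 CPM with EGCG, and the log2 fold change was 0.09 (standard error 0.09). Scd2 was at 62.2 and 54.1 CPM in control and 56.0 and 58.5 CPM with EGCG, and the log2 fold change was -0.02 (standard error 0.09). Both had overlapping groups. Of the 31-base words of Scd1, 8.18% also occur in transcripts of any other gene, and of those of Scd2 6.81%, Scd2 and Scd1 being among each other's sharing genes.
The polyunsaturated fatty acid genes also had overlapping groups. Fads1, the delta-5 desaturase, was at 21.1 and 21.2 CPM in control and at 19.5 and 21.8 CPM with EGCG. Fads2, the delta-6 desaturase, had 63 to 86 counts per library. Its log2 fold change was 0.05, with a wide unadjusted 95% interval from -0.42 to 0.53. Elovl5, which elongates polyunsaturated chains, had a log2 fold change of 0.0042 (standard error 0.10.) Elovl1 was at 157.6 and 159.9 CPM in control and at 163.5 CPM in both EGCG libraries, a log2 fold change of 0.04 with an unadjusted 95% interval from -0.11 to 0.20.

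Of the 4 regulators, Srebf1 had both EGCG libraries below both control libraries, and Srebf2, Scap and Insig1 had overlapping groups and a sign that turned when a library was left out. At an adjusted p under 0.05, 0 of the 4 passed edgeR's test (0.15% of all tested genes), and Srebf1 had an unadjusted p of 0.0496 in edgeR. Srebf1 (ENSMUSG00000020538, chr11:60199089-60222581 on GRCm38, minus strand) was at 74.2 and 69.4 CPM in control and at 62.0 and 65.2 CPM with EGCG. The groups did not overlap, and the log2 fold change was -0.17 (standard error 0.08, edgeR adjusted p 0.408, from 0.295 to 0.767 over 9 alternatives). Srebf1 makes 2 main proteins, SREBP-1a and SREBP-1c, from separate first exons, and the counts per gene do not tell them apart.
Srebf2 was at 277.0 and 276.2 CPM in control and at 264.3 and 288.0 CPM with EGCG, with a control value between the EGCG values. Its log2 fold change was -0.0023 (standard error 0.08, unadjusted 95% interval from -0.16 to 0.16), and the settings that turned its sign were upper-quartile scaling, no filter on low counts and a length offset. Insig1, which retains the SREBPs in the endoplasmic reticulum and is itself an SREBP target, was at 63.2 and 63.5 CPM in control and 58.1 and 64.8 CPM with EGCG. Its log2 fold change was -0.04, with an interval from -0.23 to 0.14. For Scap, control replicate 1 was at 51.0 CPM, and the other control library (42.0 CPM) lay below both EGCG libraries (43.5 and 44.0 CPM). Leaving out control replicate 1 moved the log2 fold change of Scap from -0.09 to 0.06.

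Among the 7 genes of the mevalonate steps, which lead from acetyl-CoA to farnesyl diphosphate, 5 were higher and 2 lower with EGCG (49.4% of all tested genes were lower). At an adjusted or an unadjusted p under 0.05, 0 passed edgeR's test, against 0.15% and 12.2% of all tested genes. Their summed level was 252.9 and 239.9 CPM in control against 248.1 and 236.2 CPM with EGCG. Hmgcs1, which makes HMG-CoA, was at 72.7 and 74.3 CPM in control and 77.3 and 78.1 CPM with EGCG. The groups were apart by little, and the log2 fold change was 0.08 with an unadjusted 95% interval from -0.08 to 0.24. Mvk, the mevalonate kinase, had the highest fold change of the family: it was at 17.6 and 17.01 CPM in control and 19.4 and 19.1 CPM with EGCG, a log2 fold change of 0.15 (standard error 0.11, edgeR adjusted p 0.617).
Mvd decarboxylates the last mevalonate intermediate, and its groups overlapped. It was at 107.1 and 93.4 CPM in control and at 94.5 and 84.9 CPM with EGCG, and its log2 fold change of -0.16 (standard error 0.09) became -0.05 without control replicate 1 and -0.25 without control replicate 2. Pmvk, the kinase before it, and Idi1, the isomerase after it, had log2 fold changes of -0.04 and 0.03. Acat2 (cytosolic acetoacetyl-CoA thiolase) and Fdps (farnesyl diphosphate synthase) had 0.08 and 0.02. Reads of Acat2, Fdps and Idi1 are uncertain, since 43.8% of the words of Acat2 recur in other transcripts, mainly of Acat3, as do 27.9% of those of Fdps and 27.1% of those of Idi1. The 59 to 80 counts of Fdps per library were the fewest at the low end of the family, and its interval ran from -0.47 to 0.50.

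The sterol branch takes farnesyl diphosphate to squalene and then, through lanosterol, to cholesterol. Of its 11 genes, 7 were lower and 4 higher (49.4% of all tested genes were lower), with a median log2 fold change of -0.0091. Here too 0 passed edgeR's test at an adjusted or an unadjusted p under 0.05 (0.15% and 12.2% of all tested genes). The summed level was 349.7 and 346.8 CPM in control and 335.3 and 346.6 CPM with EGCG. Sqle, the squalene epoxidase that limits flux into sterols, was at 46.8 and 52.6 CPM in control and 45.2 and 47.2 CPM with EGCG. These groups overlapped, and the log2 fold change was -0.11 (standard error 0.09, unadjusted 95% interval from -0.30 to 0.09). It ran from -0.18 without control replicate 1 to -0.02 without control replicate 2. Fdft1, the squalene synthase, had EGCG values of 38.5 and 47.6 CPM on either side of the control values (43.6 and 40.3 CPM), and 31.9% of its words are shared with other genes, mainly with Ctsb on the opposite strand.
Lss and Cyp51 close the ring of lanosterol and remove its first methyl group. The EGCG libraries of Lss were far apart, at 15.5 and 11.6 CPM against 16.98 and 13.8 CPM in control, and its log2 fold change of -0.19 became 0.0098 without EGCG replicate 2. Cyp51 was at 59.0 and 53.9 CPM in control and at 54.6 and 54.5 CPM with EGCG, a log2 fold change of -0.05.
Of the later demethylation and reduction steps, Sc5d, the lathosterol desaturase, had separate groups. It was at 28.5 and 29.4 CPM in control and 26.1 and 24.9 CPM with EGCG, and its log2 fold change was -0.18 (standard error 0.10, edgeR adjusted p 0.488). Nsdhl, which removes the methyl groups at carbon 4 together with Msmo1, was also lower in both EGCG libraries (17.3 and 17.7 against 18.0 and 19.98 CPM), whereas Msmo1 was higher in both (79.4 and 80.8 against 74.9 and 78.9 CPM). Their log2 fold changes were -0.12 and 0.06, with standard errors of 0.11 and 0.08. Without control replicate 2 that of Nsdhl was -0.04, and without control replicate 1 it was -0.19. For Msmo1 the same omissions gave 0.10 and 0.03. The other sterol genes were Tm7sf2, a sterol reductase (0.12), Ebp, the sterol isomerase (0.02), Hsd17b7, a ketosteroid reductase (-0.0091), and Dhcr7, the last reductase (-0.0078), all as log2 fold changes.
Stard4, which carries cholesterol through the cytosol, was at 46.1 and 46.0 CPM in control and 44.9 and 41.9 CPM with EGCG, and the log2 fold change was -0.09 (standard error 0.09), or -0.04 without EGCG replicate 2 and -0.13 without EGCG replicate 1. Tmem97, a sterol-responsive membrane protein, was at 6.08 and 6.04 CPM in control and 7.50 and 5.82 CPM with EGCG, and the log2 fold change of 0.14 turned to -0.06 without EGCG replicate 1. Of the words of Tmem97, 25.6% are shared with Gm5809, and its reads are uncertain.

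Fold changes across the 35 genes went with exonic length: the Spearman correlation was -0.44 over the 35 genes and -0.34 over 33 without Fasn and Acaca, against -0.29 over 14666 tested genes. These genes share the same 4 libraries and are not independent. The value over the 35 genes includes Fasn, which was chosen because it fell in these libraries. Whether the correlation differs from that of all tested genes was not tested. Fasn has 10947 and Acaca 17074 exonic bases, and Acaca is the longest gene of the family. With an offset for length in each library, the log2 fold change of Fasn was -0.32 (standard error 0.09), that of Acaca -0.19 (standard error 0.11) and that of Elovl6 -0.30 (standard error 0.21). Lss and Acss2, of similar length to Fasn, had -0.19 and 0.08 without the offset and -0.09 and 0.17 with it.
Some marker genes of other cells lay apart between the groups, in both directions. Over all tested genes, both EGCG libraries lay below both control libraries for 21.2% and above them for 21.5%. The 7 splenic macrophage markers summed to 377.9 and 380.8 CPM in control and to 298.9 and 318.1 CPM with EGCG, and 4 of the 7 were lower in both EGCG libraries. All 4 endothelial markers were lower in both, with sums of 113.9 and 125.9 against 93.9 and 98.6 CPM. The 4 monocyte markers summed to 866.8 and 804.4 against 745.6 and 770.5 CPM, with 2 of 4 lower in both. The 5 markers of cycling cells summed to 528.2 and 530.9 against 441.3 and 425.9 CPM, with Mki67 and Top2a lower in both EGCG libraries, Mcm5 higher in both, and the other 2 overlapping. Higher in both EGCG libraries were 3 of 5 erythroid markers, 2 of 4 B cell markers, 2 of 4 tumor epithelium markers and 4 of the 10 table entries of the sorted cells' own markers. The tumor epithelium markers summed to only 4.66 and 3.86 CPM in control and 6.51 and 6.61 CPM with EGCG, and Krt14 among them had 0 counts throughout. Klf1, an erythroid marker counted as higher, had 4 to 11 counts per library. T and NK cell markers summed to 81.2 and 92.3 CPM in control and 94.1 and 96.9 CPM with EGCG (1 of 4 higher and 1 lower in both EGCG libraries). Platelet markers summed to 36.3 and 39.3 against 32.4 and 32.0 CPM (1 of 4 lower in both), and 1 of 4 dendritic cell markers was lower in both. The part of these cells in the levels of Fasn and Acaca was not tested. Adipocyte markers, from cells rich in fatty acid synthase, were at most 0.62 CPM in sum. Of these 3 markers, Adipoq was higher in both EGCG libraries (8 and 9 counts against 0 and 7 in control). Plin1 had 0 counts in every library.

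**Figure D4:**
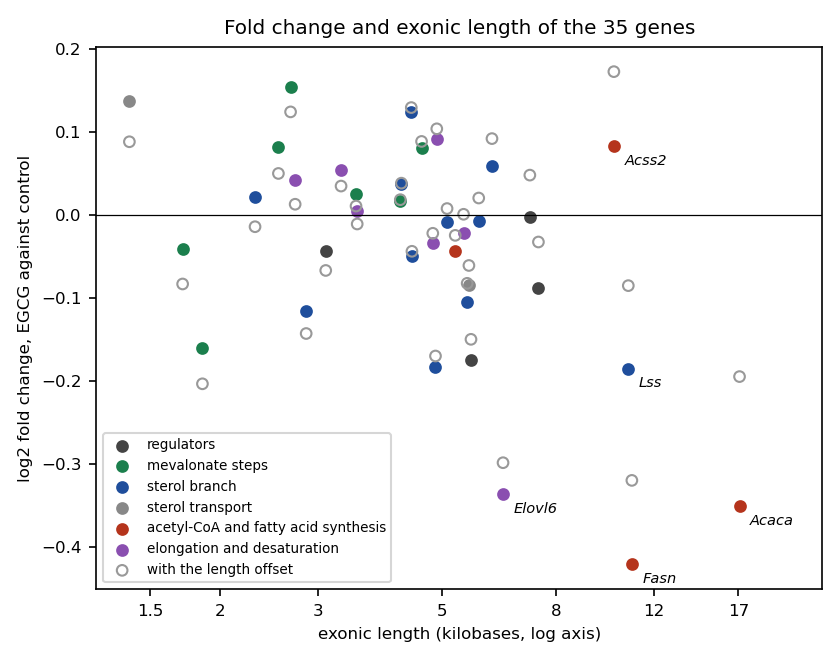
Log2 fold change of EGCG against control against exonic length in kilobases (log axis) for the 35 genes, colored by role, with gray open circles for the values under the length offset. Fasn and Acaca are lowest and are among the longest genes, and the offset moves Fasn from -0.42 to -0.32 and Acaca from -0.35 to -0.19.

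Around the family, 61 related genes were read from the same fit: SREBP processing and turnover, the liver X receptor (LXR) side, isoprenoid use, sterol storage, supply of citrate and NADPH, fatty acid activation and glycerolipid synthesis. At an adjusted p under 0.05 in edgeR's test, 0 were lower and 0 higher (0.136% and 0.0136% of all tested genes), and before adjustment, at p under 0.05, 4 were lower and 1 higher (7.02% and 5.22% of all). DESeq2 gave 0 at an adjusted and 2 at an unadjusted p under 0.05, and it returned no adjusted p for at least Acacb. In direction, 25 of the 61 were lower, with a median log2 fold change of 0.02. The genes with the smallest p included Abca1, an LXR target that exports cholesterol, at 91.6 and 80.5 CPM in control and 67.1 and 73.9 CPM with EGCG. Its log2 fold change was -0.29 (standard error 0.09, edgeR adjusted p 0.223). Dropping control replicate 2 gave -0.37 (edgeR adjusted p 0.0335), and dropping control replicate 1 gave -0.19 (edgeR adjusted p 0.837). In each of these fits the control group is 1 library, which is assumed to vary like the EGCG libraries.
Acacb, the mitochondrial acetyl-CoA carboxylase whose malonyl-CoA restrains fatty acid oxidation, had 41 and 37 counts in control and 23 and 20 with EGCG. Its log2 fold change was -0.85 (standard error 0.32), and the adjusted p was 0.306 in edgeR's test. Like Acaca it was lower in both EGCG libraries, and its few counts leave a wide unadjusted 95% interval, from -1.53 to -0.17. The other 3 genes were Hacd2, a dehydratase of the elongation cycle (log2 fold change 0.28), Lpin2, a phosphatidate phosphatase (-0.20), and Mbtps1, the protease that makes the first cut in the SREBPs (-0.19), with adjusted p values from 0.263 to 0.378 in edgeR's test. With the length offset, Lpin2 was at -0.09 and Mbtps1 at -0.09.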

How the data were processed

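RNA-seq of 4 libraries was analyzed, 2 per group. Reads had been mapped by the authors with STAR 2.6.0c (GRCm38) and summarized per Ensembl gene with featureCounts 1.6.2, and the deposited values are whole-number counts without normalization (tools and versions from the submitters' processing notes). The deposited table is marked as non-stranded, so reads from overlapping genes on opposite strands cannot be told apart. There were 0 lines without a gene name and 0 columns of other samples.

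Genes were filtered with edgeR's filterByExpr (minimum count of 10), scaled by TMM, and compared with edgeR 4.0.16 (two-sided quasi-likelihood F test, legacy option, no block), with Benjamini-Hochberg adjustment over 14682 genes and a threshold of 0.05. The standard error is the log2 fold change divided by the square root of F. Intervals use the t distribution and are not adjusted. GENCODE M21 (GRCm38) gave positions, exonic lengths and 31-base words, with 53360 of 53465 identifiers matched. The length offset is a loess of log counts on log length in each library (span of 0.4). The fits were tested on simulated data. With 2 against 2 libraries, an exact permutation test cannot go below p = 0.333.

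The members and gene lists were chosen with earlier results of these data known. All 35 members are named, and of the related list, genes past the threshold and the 5 with the smallest p. The alternatives were other scalings and filters, a robust fit, DESeq2 1.42.0, a replicate block, the length offset and leaving out each library. Other tools were R 4.3.3, Python 3.11.15 and matplotlib 3.10.9.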

Additional observations from a re-analysis of the deposited data

How the results depend on the processing

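The count of called members other than Fasn was 0 in each direction under all 9 alternatives and with each library left out. Of the 35 genes, 27 kept their direction under the 9 alternatives (15 when libraries were also left out), counting Fasn. With so few calls over all genes, a count of 0 among 34 says nothing about stability. The genes called over the whole table, 20 lower and 2 higher, became 9 lower with upper-quartile scaling, 135 lower and 16 higher with library size only, 0 and 0 without a filter (where more genes were tested), 49 and 14 with the robust fit, 50 and 14 with DESeq2, 6 lower with the length offset, 1 higher with a CPM minimum of 1, and 72 to 235 lower and 5 to 119 higher with a library left out, where the lone library of a group is assumed to vary like the other group. With the replicate number as a block, 24 genes were lower and 6 higher, and 0 members were called. The correlation of same-numbered deviations over the tested genes was 0.0268. With 2 libraries per group, this value cannot show whether same-numbered libraries shared mice or handling. The members' median log2 fold change was -0.0447 with library size only (the shift of all genes included), and -0.0523 to 0.0122 with a library left out. Of the related genes, 0 to 1 were called lower with a library left out, and the cause was not tested. Reversals were confined to genes within 0.14 of 0 in the fit of the report, except Lss. Srebf2 was at 0.0047 with upper-quartile scaling, 0.0009 without a filter and 0.0479 with the length offset. With library size only, which moved the median of all tested genes from 0.0031 to -0.0319, the values were -0.0086 for Idi1, -0.0202 for Fdps, -0.0143 for Ebp and -0.0301 for Elovl5. With the length offset they were 0.0076 for Hsd17b7, -0.0143 for Ebp, 0.0203 for Dhcr7, -0.0110 for Elovl5 and 0.0007 for Scd2.

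With a library left out, the ranges were -0.0644 to 0.0609 for Srebf2, -0.2197 to 0.0649 for Scap, -0.1237 to 0.0364 for Insig1, -0.0264 to 0.2055 for Acat2, -0.1105 to 0.0407 for Pmvk, -0.0509 to 0.1135 for Idi1 and -0.1693 to 0.2404 for Fdps. In the sterol branch they were -0.1235 to 0.1853 for Fdft1, -0.4079 to 0.0098 for Lss, -0.1100 to 0.0211 for Cyp51, -0.0674 to 0.0508 for Hsd17b7, -0.0426 to 0.0963 for Ebp and -0.0571 to 0.0507 for Dhcr7. For the remaining genes they were -0.0554 to 0.3083 for Tmem97, -0.0112 to 0.1910 for Acss2, -0.0794 to 0.0870 for Elovl5, -0.0127 to 0.2098 for Scd1, -0.1167 to 0.0871 for Scd2, -0.1180 to 0.0487 for Fads1 and -0.1358 to 0.2837 for Fads2. Fasn ran from -0.5142 to -0.3147. The family was chosen because Fasn fell in these libraries, so its direction here is no test.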
